A study of Rattus norvegicus with 6 samples.

Results

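Translation initiation and elongation factors are the proteins that load ribosomes onto mRNA and drive them along it. Their transcripts were compared between diabetic and normal rat diaphragm. Members were the probe sets annotated to exactly 1 gene whose symbol begins with Eif or Eef and a digit, without Eif4ebp1. This gave 65 probe sets for 55 genes, of 15923 probe sets and 10411 named genes on the array. For 54 of the 55 genes the mean signal lay above the 40th percentile of the array (105.8), and these were tested. Eef1akmt4 lay below it. A gene with several probe sets was represented by its brightest one. A further 4 probe sets assigned to a factor and also to a second gene were left out.

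The diabetic rats had received streptozotocin, which destroys insulin-producing cells of the pancreas, at 60 mg/kg into the peritoneum at 8 weeks of age. The normal rats had received citrate buffer alone at the same age. All were male Wistar rats, the costal diaphragm was taken 4 weeks after injection following an overnight fast, and no insulin was given. The left hemidiaphragm of 3 diabetic and 3 normal rats was used, and the RNA of each rat had its own Affymetrix RAE 230A array. Values are MAS 5.0 signals (linear intensities), which compare 1 gene between rats but do not order genes by abundance.

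Translation of most mRNAs starts when eIF2 brings the initiator tRNA to the small ribosomal subunit, where eIF1, eIF1A, eIF3 and eIF5 assemble with it. The eIF4 factors bind the mRNA cap, unwind the leader and, through eIF3, recruit the subunit. Elongation is then driven by eEF1A, which delivers aminoacyl-tRNA, and by eEF2, which moves the ribosome along. In skeletal muscle, insulin is known to favour translation through mTOR, which phosphorylates the eIF4E-binding proteins and S6 kinase, and through eIF2B. Insulin lack is known to lower muscle protein synthesis.

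Promoter sequence was read from RefSeq (build GRCr8) in windows reaching from 250 bases before to 50 bases after each annotated start. Of the 55 genes, 51 were matched, with 54 windows. Eif4b, Eif4e3, Eif3h and Eef1d were not matched. The E-box CACGTG, which reads the same on both strands and is bound by basic helix-loop-helix proteins such as Myc and Usf, was present in 11 of the 54 windows (20.4%), against 6.42% of all 33469 windows of that length. Median GC content was 60.2% in the windows of the factors and 51.7% in all windows, and its part in the E-box share was not tested. The sequences below show the E-box (capitals) that lies before the start in genes whose diabetic and normal arrays did not overlap. The first 5 were higher and the last 2 lower on every diabetic array. Eif3a, also higher on every diabetic array, is not shown because its E-box lies after the start, and Eif4e, shown with the nearer site, has a second one at -237. The number after each name is the position of the first base of the E-box from the annotated start, and sequences run 5′ to 3′ along the strand of the gene.
Eef2, -76, chr7:9189294-9189329, minus strand: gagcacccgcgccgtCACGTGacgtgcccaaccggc
Eif3b, -57, chr12:19334805-19334840, minus strand: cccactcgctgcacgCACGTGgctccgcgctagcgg
Eif3f, -59, chr1:172368988-172369023, plus strand: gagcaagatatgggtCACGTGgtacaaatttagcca
Eif4h, -168, chr12:27719509-27719544, plus strand: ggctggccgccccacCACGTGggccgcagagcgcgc
Eef1akmt4, -101, chr11:93804142-93804177, minus strand: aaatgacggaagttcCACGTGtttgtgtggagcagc
Eef2k, -77, chr1:184824328-184824363, plus strand: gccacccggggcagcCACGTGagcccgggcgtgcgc
Eif4e, -80, chr2:229740658-229740693, plus strand: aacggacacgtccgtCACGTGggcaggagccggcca

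The E-box was thus present in genes of both directions. Of the 10 tested genes that held it, 8 had a higher and 2 a lower mean log2 level in diabetic muscle. Of the 40 matched genes without it, 34 had a higher and 6 a lower level, so the E-box genes were not more often higher. The median log2 difference was 0.35 with the E-box and 0.26 without it. Eif1b, Eif4g1 and Eif5a, whose groups overlapped, held it as well. The ATF4 element TGATGNAA (both strands) was found in 1 factor window (1.85%, the window of Eif2s2) and in 3.98% of all windows. The FoxO element TGTTTAC (both strands) was found in 0 of 54, against 3.78% of all windows, and this states only that those letters were not in these windows.

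Many mRNAs of the translation machinery begin with a C followed by a run of pyrimidines, the terminal oligopyrimidine (TOP) motif, which couples their translation to mTOR. A C followed by at least 4 C or T within 10 bases of the annotated start on the strand of the gene was found in 18 of 54 windows (33.3%), close to the 28.9% of all windows. At the annotated start base itself it was found in 0 of 54, against 2.63% of all windows. Both counts rest on the annotated start, which was not checked against the starts used in diaphragm. The starts of Eef1a1, Eef1b2 and Eef2 are printed because they are textbook TOP genes whose diabetic and normal arrays did not overlap. Each stretch holds 20 bases on either side of the start, with a pyrimidine run found within 10 bases in capitals. Eef2 had no such run within 10 bases of its annotated start. In its stretch a C followed by at least 4 C or T lies further before the start, outside the searched bases, and is left in lower case.
Eef1a1, chr8:88225050-88225089, minus strand: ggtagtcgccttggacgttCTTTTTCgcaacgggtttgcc
Eef1b2, chr9:72074071-72074110, plus strand: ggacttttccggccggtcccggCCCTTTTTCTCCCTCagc
Eef2, chr7:9189219-9189258, minus strand: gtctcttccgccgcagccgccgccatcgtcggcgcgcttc

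Most translation factor transcripts had a modestly higher level in diabetic diaphragm, and 2 passed the test over the whole array. Eif4b, which stimulates the eIF4A helicase, rose, and Eef2k, the kinase that inhibits eEF2, fell. Of the 54 genes tested, 45 had a higher and 9 a lower mean log2 level in diabetic muscle (83.3% higher), against 50.8% of the 7080 genes tested on the array. The median log2 difference, diabetic minus normal, was 0.27 over the factors and 0.01 over all genes, and the factors ranged between -0.88 and 0.62. The remaining 52 factors did not pass limma at an adjusted p under 0.05.

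Counted at that threshold, 1 of 54 factors (1.85%) was called higher, against 3.46% of all genes, and 1 (1.85%) was called lower, against 3.55% of all genes. By this count the factors were not called more often than other genes. At an unadjusted p under 0.05 the count was 15 higher (27.8%), against 12.8% of all genes, and 4 lower (7.41%), against 11.9%. The 3 diabetic arrays all lay above the 3 normal arrays for 18 of 54 factors (33.3%), against 15.9% of all genes, and all below for 4 (7.41%), against 14.9%. The factors are not independent of each other, and no test over the list was made. With 1 array left out, the log2 difference of 31 of the 54 moved by over 1.5 times in at least 1 fit, and in 10 of these it changed sign.

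**Figure D1:**
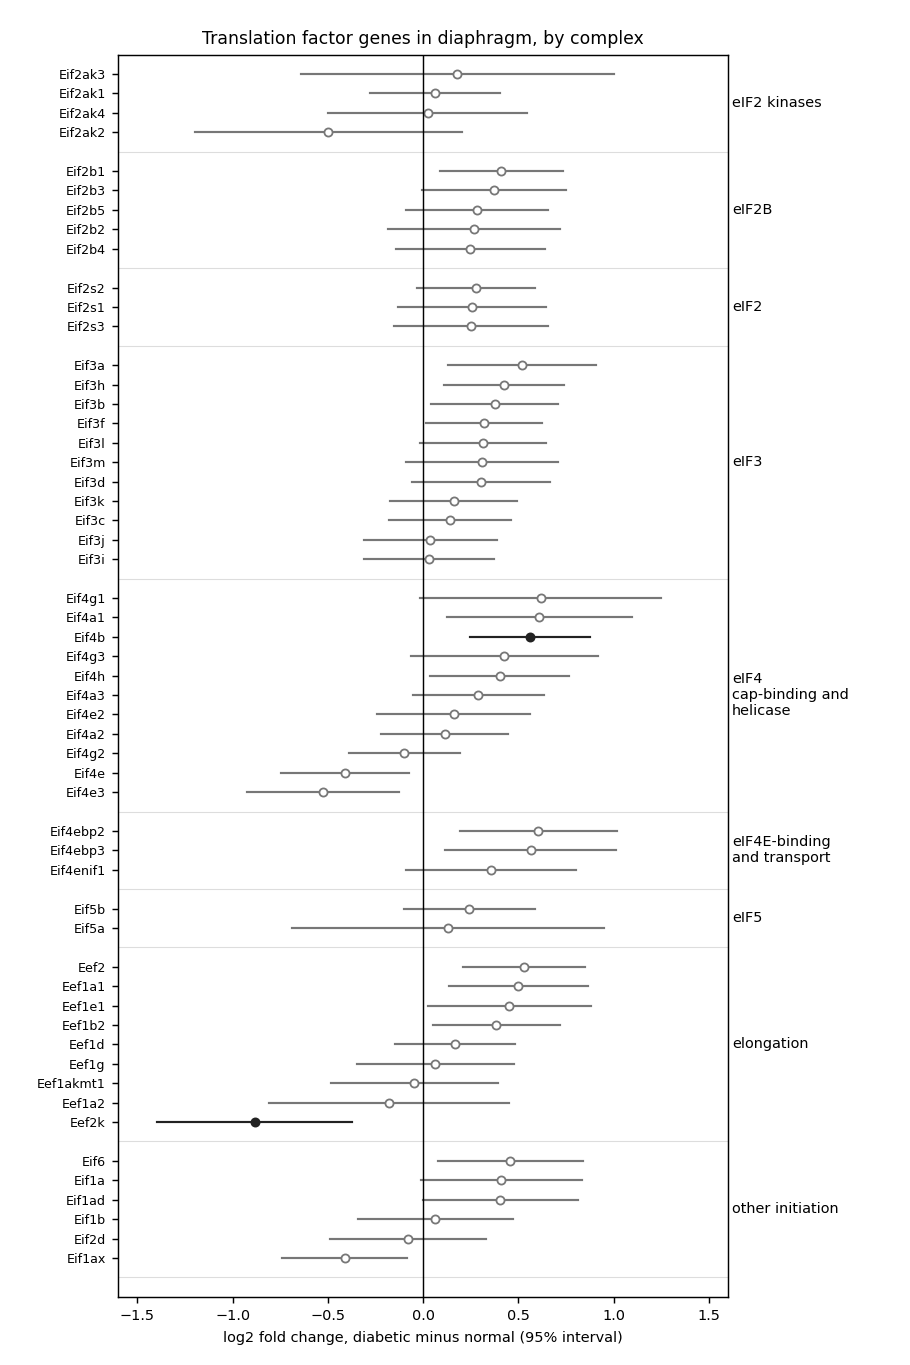
Log2 fold change (horizontal axis, diabetic minus normal) of the 54 tested translation factor genes, grouped by complex. Points are limma estimates, bars are 95% intervals, and filled points mark Eif4b and Eef2k, which passed at an adjusted p under 0.05. All 11 eIF3 genes, all 5 eIF2B genes and all 3 eIF2 genes lie to the right of 0.

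The shift was present on each diabetic array. Relative to the mean of the normal arrays, the median log2 level of the 54 factors was 0.19, 0.29 and 0.33 on the diabetic arrays, against 0.02, 0.04 and -0.02 on the normal arrays. The same median over all genes was 0.01, 0.06 and -0.01 on the diabetic arrays, against 0.00, 0.01 and 0.00 on the normal arrays. Summed over the 55 genes, the signal was 133972, 137358 and 145401 on the diabetic arrays, against 120633, 116628 and 121057 on the normal arrays. The brightest genes, such as Eef1a1, Eef1g and Eif4a2, weigh most in this sum. Neither of these 2 factor measures overlapped between groups. The eIF5 group held 2 genes, Eif5a and Eif5b, and Eif5 itself was not among the members. In each factor group other than eIF5 and the eIF2 kinases, the diabetic medians lay above the normal medians. The gap was narrow for eIF3 (0.11 to 0.29 on diabetic and -0.08 to 0.09 on normal arrays) and for the other initiation factors (0.12 to 0.26 on diabetic and -0.09 to 0.11 on normal arrays). It was also narrow for elongation (0.12 to 0.35 on diabetic and -0.05 to 0.08 on normal arrays). The factors are brighter than most genes, so the comparison was also made by mean signal. Among genes of 2000 to 5000 the median log2 difference was 0.30 for 15 factors and -0.06 for all 584 genes. Among genes above 5000 it was 0.09 for 6 factors and -0.11 for all 328 genes.

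**Figure D2:**
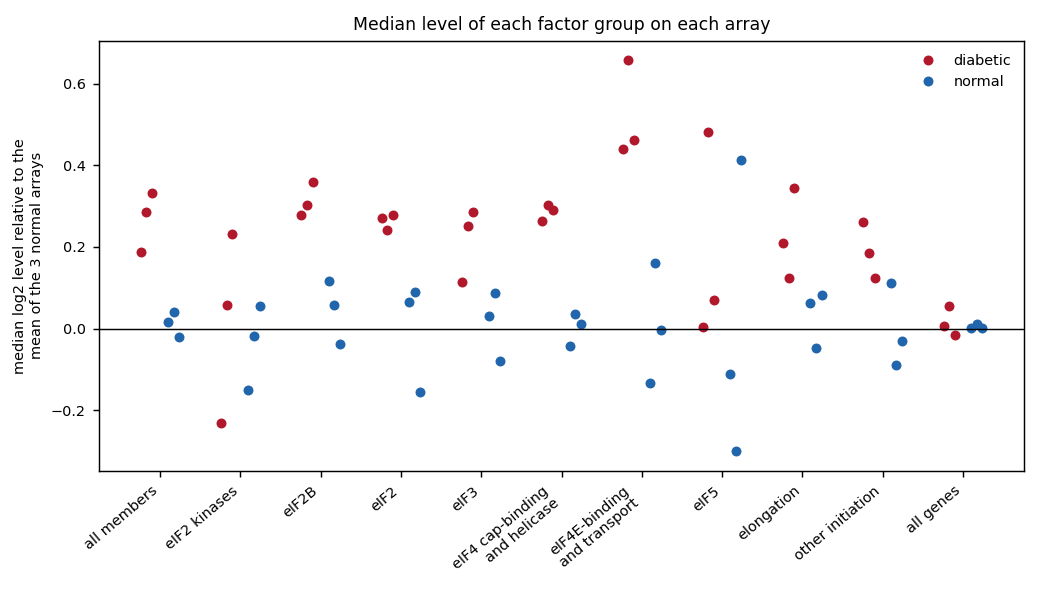
Median log2 level of each factor group on each array, relative to the mean of the 3 normal arrays (vertical axis), with 1 point per rat, diabetic in red and normal in blue. For all members the diabetic arrays lie at 0.19 to 0.33 and the normal arrays at -0.02 to 0.04. The eIF5 group (Eif5a and Eif5b) and the eIF2 kinases overlap between groups.

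Several measures of the tissue moved with the groups. Summed signal of 7 fibroblast markers was 22618 to 23982 on diabetic and 45146 to 49745 on normal arrays, with 5 of 7 called lower. All 14 skeletal muscle markers exceeded the signal filter, 2 were called lower (Mb and Myh4), and their summed signal overlapped between groups (240123 to 332014 on diabetic, 283555 to 333681 on normal arrays). Of 4 endothelial markers 1 (Kdr) was called higher, with sums of 2817 to 3176 on diabetic and 2211 to 2412 on normal arrays. In smooth muscle 2 of the 4 tested markers were called lower. None of the leukocyte, adipocyte or red blood cell markers was called, and none of the 6 liver markers exceeded the signal filter. In whole muscle, fewer cells of a type and less RNA per cell cannot be told apart, and the part of these shifts in the factor levels was not tested. On diabetic replicate 3 the spiked bacterial transcripts stood at 1.99 times their geometric mean over all 6 arrays, against 0.829 to 0.882 on the other 5.

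The eIF2 complex carries the initiator tRNA to the ribosome, and eIF2B recharges it with GTP. All 3 eIF2 subunits and all 5 eIF2B subunits had a higher mean level in diabetic muscle, by similar amounts. None passed in limma, and 1, Eif2b1, had an unadjusted p under 0.05, against 12.8% of all genes in that direction. Eif2s1, the alpha subunit on whose phosphorylation the integrated stress response turns, had signals of 1008.2, 1007.2 and 1033.4 on diabetic arrays, against 733.5, 1074.4 and 783.9 on normal arrays. Normal replicate 2 lay above all diabetic arrays. Eif2s2, the beta subunit, had signals of 4113.7, 3978 and 4317.2 on diabetic arrays, against 3571.9, 3630.4 and 3061.3 on normal arrays, without overlap. The log2 difference was 0.25 for Eif2s1 (SE 0.17, limma adjusted p = 0.415), 0.28 for Eif2s2 (SE 0.14, limma adjusted p = 0.253) and 0.25 for Eif2s3, the gamma subunit that binds GTP.

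Among the eIF2B genes the log2 differences lay between 0.25 and 0.41, with a median of 0.28. In 3 of 5 the diabetic arrays all lay above the normal arrays, against 15.9% of all genes. Eif2b1, which encodes the alpha subunit, had signals of 783.8, 770.7 and 854.8 on diabetic arrays, against 628.5, 591.8 and 591.3 on normal arrays. Its log2 difference was 0.41 (95% interval 0.09 to 0.73, limma adjusted p = 0.123). Eif2b5, the catalytic epsilon subunit, had signals of 607.6, 659.6 and 684.5 on diabetic arrays, against 583.7, 584.5 and 445.4 on normal arrays, also without overlap, with a log2 difference of 0.28 (95% interval -0.09 to 0.66, limma adjusted p = 0.334). Without normal replicate 3 it was 0.15. A dimmer second probe set of Eif2b5 differed by 0.17 (limma adjusted p = 0.703). Eif2b3, the gamma subunit, differed by 0.37 and did not overlap. Eif2b2 and Eif2b4, the beta and delta subunits, differed by 0.27 and 0.25 with overlapping arrays.

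The 4 kinases that phosphorylate eIF2 alpha had a median log2 difference of 0.04, 3 with a higher and 1 with a lower mean level. The diabetic and normal arrays of each of them overlapped, and 0 had an unadjusted p under 0.05 in limma. Eif2ak1 (HRI, the heme-regulated kinase) had signals of 665.9, 798.4 and 758.5 on diabetic arrays, against 742.7, 658.8 and 724.8 on normal arrays. Its second probe set differed the other way, by -0.35 against 0.06 for the first, and neither passed. Eif2ak2 (PKR, activated by double-stranded RNA) was dim, at 69.6, 151.4 and 131.3 on diabetic arrays, against 138, 149.4 and 189.3 on normal arrays, and its log2 difference of -0.50 carried an interval of -1.20 to 0.20. Without diabetic replicate 1 it was -0.16. Eif2ak3 (PERK, the kinase of the endoplasmic reticulum) had 108.6, 193 and 175.1 on diabetic arrays, against 100.9, 245.3 and 102.2 on normal arrays. For Eif2ak4 (GCN2, which senses uncharged tRNA) the signals were 131.4, 128.6 and 186.3 on diabetic arrays, against 133.3, 147.9 and 151.8 on normal arrays. The intervals of both, -0.64 to 1.00 for Eif2ak3 and -0.50 to 0.55 for Eif2ak4, span 0 on both sides.

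The scaffold eIF3 holds the small subunit and contacts eIF4G. All 11 of its measured subunits had a higher mean level in diabetic muscle, with a median log2 difference of 0.31 and a range of 0.03 to 0.52, and 0 passed the adjusted threshold in limma. At an unadjusted p under 0.05 there were 4 of 11 (Eif3a, Eif3b, Eif3f and Eif3h), against 12.8% of all genes at that threshold and in that direction. In 5 of 11 every diabetic array lay above every normal array, against 15.9% of all genes. Eif3a, the largest core subunit, had signals of 2947.2, 2693.4 and 3588.3 on diabetic arrays, against 2282, 2417.2 and 1753.5 on normal arrays, a log2 difference of 0.52 (SE 0.18, limma adjusted p = 0.108). Eif3h had 4244, 4583.8 and 5197.7 on diabetic arrays, against 3546.6, 3664 and 3225.3 on normal arrays, a log2 difference of 0.42 (SE 0.14, limma adjusted p = 0.106). Every diabetic array of these genes lay above every normal array.

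Within eIF3 the subunits differed in size of shift. Eif3b, a core subunit with an RNA recognition motif, had signals of 1317.3, 1230.3 and 1135.2 on diabetic arrays, against 862.9, 1031.7 and 947 on normal arrays (log2 difference 0.38). Eif3f had 3345.5, 3707.1 and 3362.6 on diabetic arrays, against 2991.8, 2724.6 and 2632.1 on normal arrays (log2 difference 0.32) and Eif3l differed by 0.32, both without overlap. Eif3f is also known in mouse muscle cells as a target of the ubiquitin ligase atrogin-1. Eif3i and Eif3j stood near 0, at 0.03 (95% interval -0.31 to 0.37) and 0.04 (95% interval -0.31 to 0.39), and their arrays overlapped. Eif3c, Eif3d, Eif3k and Eif3m lay between, at 0.14, 0.30, 0.16 and 0.31, and overlapped between groups.

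The eIF4 group was split. Of its 11 genes 8 had a higher mean level in diabetic muscle, among them the helicase and its helpers, and 3 had a lower one, among them the cap-binding genes Eif4e and Eif4e3. Eif4b, the cofactor of the helicase and a substrate of S6 kinase, rose. Its signals were 2598.9, 2290.3 and 2636.8 on diabetic arrays, against 1783.1, 1601.3 and 1716.7 on normal arrays, or 2509 ± 190.1 in diabetic and 1700.4 ± 92.0 in normal muscle (SD, n = 3 each). The ratio of the means was 1.48 and the log2 difference 0.56 (SE 0.14, limma adjusted p = 0.0425). A second probe set had 1553.9, 1982.5 and 2002 on diabetic arrays, against 1205.7, 1041 and 1282.2 on normal arrays, and passed as well (log2 difference 0.65, SE 0.16, limma adjusted p = 0.0429). Neither probe set overlapped between groups. The call of the first was lost when any 1 of the 6 arrays was left out (adjusted p 0.072 to 0.112), while the log2 difference stayed at 0.52 to 0.62. It was also lost with no signal filter (adjusted p = 0.0515), with arrays scaled to the same median (0.0593) and with no variance trend (0.0771).

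Eif4a1, the main helicase, had signals of 1331.3, 1685.7 and 1921 on diabetic arrays, against 1035.2, 823.5 and 1425 on normal arrays. Normal replicate 3 reached into the range of the diabetic arrays, and the log2 difference was 0.61 (SE 0.22, limma adjusted p = 0.127). Its paralog Eif4a2, which is abundant in muscle, differed by 0.11 (95% interval -0.22 to 0.45). Eif4h, which like Eif4b stimulates the helicase, had signals of 1805.7, 2001.1 and 1919.1 on diabetic arrays, against 1607, 1589.4 and 1177.7 on normal arrays, without overlap (log2 difference 0.40, limma adjusted p = 0.172). Eif4a3, a component of the exon junction complex, differed by 0.29 and its arrays overlapped.

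Of the 3 cap-binding genes, Eif4e and Eif4e3 had lower and Eif4e2 higher mean levels in diabetic muscle. Eif4e, which binds the mRNA cap, had signals of 2177.3, 1764.1 and 2280.9 on diabetic arrays, against 2656.8, 2887.6 and 2672.1 on normal arrays. Every diabetic array was below every normal array, and the log2 difference was -0.41 (SE 0.15, limma adjusted p = 0.135). A second, dim probe set had a log2 difference of -0.22 and overlapped. Eif4e3, a related cap-binding protein, had 821.7, 622.8 and 540.6 on diabetic arrays, against 907.2, 959.7 and 944.8 on normal arrays, again without overlap (log2 difference -0.52, SE 0.18, limma adjusted p = 0.111). Eif4e2, a weaker cap binder linked to translational repression, differed by 0.16 with overlapping arrays. The lower level of Eif4e and Eif4e3 did not pass the test.

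The eIF4G scaffolds join the cap-binding protein, the helicase and eIF3. Eif4g1 had signals of 570.6, 961.6 and 557.8 on diabetic arrays, against 460.2, 299.4 and 614.3 on normal arrays, which overlapped, and its log2 difference of 0.62 had an interval of -0.01 to 1.25. It was 0.34 without normal replicate 2 and 0.36 without diabetic replicate 2. Eif4g3 differed by 0.43 (95% interval -0.06 to 0.92). Eif4g2, a relative without the eIF4E-binding site, had 2 probe sets, at -0.10 and -0.06, and its signals of 5571.5, 6089.8 and 5864.6 on diabetic arrays, against 5955.2, 6039 and 6787.3 on normal arrays overlapped.

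**Figure D3:**
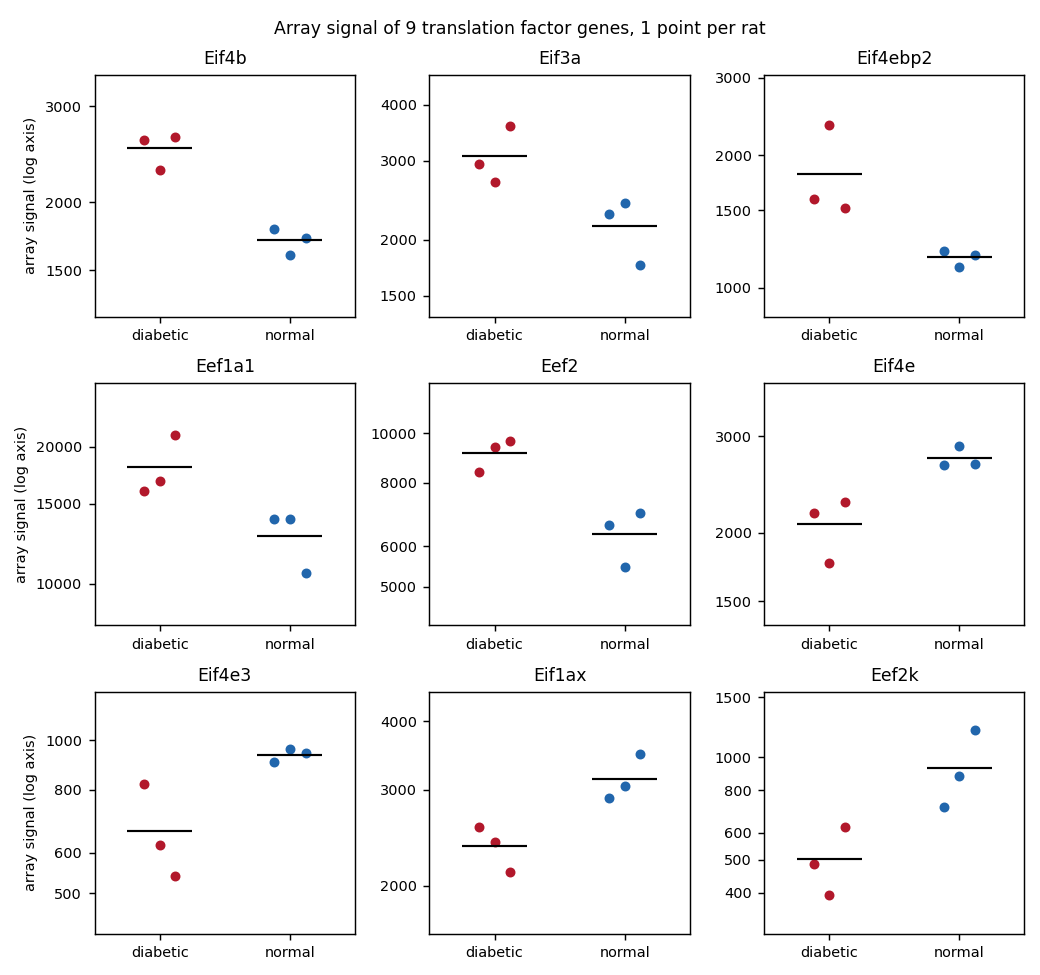
Array signal (vertical log axes) of 9 factor genes, 1 point per rat, diabetic on the left in red and normal on the right in blue, with a bar at the group mean. In 5 genes (Eif4b, Eif3a, Eif4ebp2, Eef1a1 and Eef2) all diabetic arrays lie above all normal arrays, and in Eif4e, Eif4e3, Eif1ax and Eef2k all lie below.

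The eIF4E-binding proteins sequester eIF4E until mTOR phosphorylates them. Both members of this family on the list were higher in mean on diabetic arrays without overlap, against 15.9% of all genes. Neither passed the adjusted threshold in limma, and both had an unadjusted p under 0.05, against 12.8% of all genes in that direction. Eif4ebp2 had signals of 1589.5, 2349.9 and 1517.1 on diabetic arrays, against 1214.8, 1118.3 and 1186.7 on normal arrays, with diabetic replicate 2 well above the other two. Its log2 difference was 0.60 (SE 0.19, limma adjusted p = 0.0798). Eif4ebp3 had 602.7, 445.3 and 495.6 on diabetic arrays, against 314.9, 441.7 and 295.6 on normal arrays, where the lowest diabetic and highest normal arrays nearly touched (log2 difference 0.56, limma adjusted p = 0.125). Eif4ebp1, which was outside the member rule and which the study had picked on these arrays, rose, with 5304 ± 684 in diabetic and 1424 ± 507 in normal muscle (SD, n = 3 each), a log2 difference of 1.96 (SE 0.25, limma adjusted p = 0.0024). Eif4enif1, the eIF4E transporter, differed by 0.36 and overlapped.

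Factors that act at start codon choice and subunit joining differed by gene. Eif6, which keeps free large subunits apart from small ones, had signals of 903.8, 927.7 and 873 on diabetic arrays, against 808.4, 625.4 and 558.5 on normal arrays, without overlap (log2 difference 0.46, SE 0.17, limma adjusted p = 0.141). Eif1ax, one of the genes for eIF1A, which promotes scanning, was lower in mean at 2559.5, 2406.8 and 2121.4 on diabetic arrays, against 2898, 3040.9 and 3490.3 on normal arrays, also without overlap (log2 difference -0.41, SE 0.15, limma adjusted p = 0.127). Its relative Eif1a differed by 0.41, in the opposite direction and with overlapping arrays, and Eif1ad by 0.40. Because close relatives can share probes, the split between Eif1a and Eif1ax is uncertain. Eif1b and Eif2d differed by 0.06 and -0.08. Eif5b, the GTPase of subunit joining, differed by 0.24 (95% interval -0.10 to 0.58).

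Eif5a, a factor that carries the modified lysine hypusine and relieves stalled ribosomes, varied more within groups than between them. Its signals were 913.2, 1464.6 and 833.4 on diabetic arrays, against 833.5, 566.5 and 1800.5 on normal arrays, with a log2 difference of 0.13 (95% interval -0.69 to 0.95). The GAPDH 3′/5′ control ratio of the same arrays, a measure of transcript integrity formed here from the deposited control signals, was 2.91, 1.49 and 3.997 on diabetic and 2.71, 4.02 and 1.27 on normal arrays. Several of these ratios exceed the GAPDH range that the study gave in its quality control, and the reason for the difference was not tested. Within each group the array with the lowest ratio had the highest Eif5a signal and the array with the highest ratio the lowest. Eif4g1, printed above, had the same order in both groups. Eef1a2 followed it on the normal arrays, and on the diabetic arrays its highest signal was again at the lowest ratio. This was noticed after the values were seen. A fit with the log2 ratio as a covariate, chosen after seeing the data, gave adjusted p values of 0.030 for Eif4g1 (log2 difference 0.68), 0.041 for Eef2 and 0.042 for Eif4ebp2 in limma. Eif4b and Eef2k kept their calls in it, and Eif5a was not called (adjusted p = 0.44). Over the whole array that fit called 428 probe sets higher and 419 lower, against 314 and 331 without the covariate.

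Of the 9 tested elongation genes 6 had a higher and 3 a lower mean level in diabetic muscle, and 1 passed the test, the kinase that brakes elongation. Eef2, the translocase, had signals of 8399.1, 9378.9 and 9632.6 on diabetic arrays, against 6596.2, 5472.3 and 6981 on normal arrays, or 9137 ± 651 in diabetic and 6349.8 ± 784 in normal muscle (SD, n = 3 each). No array overlapped, and the log2 difference of 0.53 (SE 0.14, 95% interval 0.21 to 0.85) had a limma adjusted p of 0.0555, just outside the threshold. Quantile normalization (adjusted p = 0.0264) and a filter at the 60th percentile (adjusted p = 0.0471) each brought it past the threshold. It stayed outside in limma with arrays scaled to the same median (adjusted p = 0.0639), a replicate block (0.0978), no variance trend (0.107) and no filter (0.112). It also stayed outside in all 6 fits that left out 1 array (adjusted p 0.074 to 0.143). Eef2k, the kinase that phosphorylates and inactivates eEF2, fell. Its signals were 485.7, 393.4 and 623.8 on diabetic arrays, against 711.7, 878.8 and 1198.4 on normal arrays, or 501 ± 116 in diabetic and 929.6 ± 247 in normal muscle (SD, n = 3 each). The ratio of the means was 0.539 and the log2 difference -0.88 (SE 0.23, limma adjusted p = 0.0471).

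The 4 probe sets of Eef2k did not agree in size. The second had 263.9, 326.7 and 294.7 on diabetic arrays, against 476.3, 349.5 and 342.3 on normal arrays, without overlap, and did not pass (log2 difference -0.39, limma adjusted p = 0.243). The third overlapped (log2 difference -0.17, limma adjusted p = 0.760) and the fourth lay below the signal filter. The call on the first was lost in 4 of the 6 fits that left out 1 array (adjusted p 0.045 to 0.144 over the 6), with the log2 difference between -1.06 and -0.68. Quantile normalization (adjusted p = 0.0502), scaling to the same median (0.0519), no variance trend (0.0757) and no filter (0.0807) also ended it. As the mean of its probe sets Eef2k differed by -0.48 (limma adjusted p = 0.155).

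**Figure D4:**
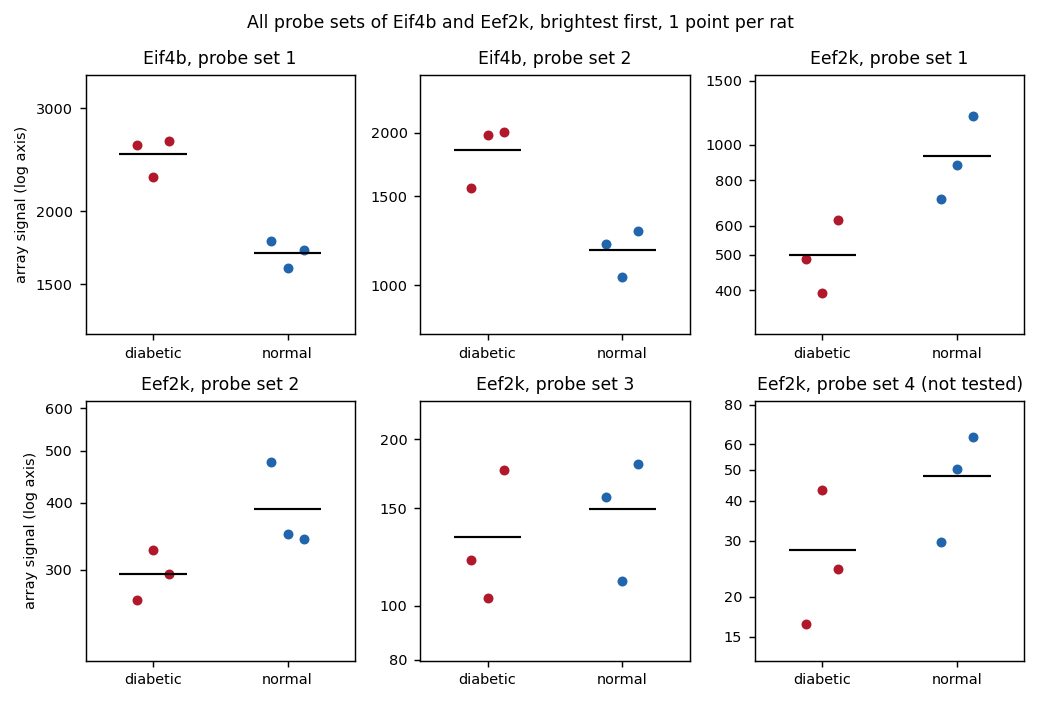
Array signal (vertical log axes) of each probe set of Eif4b and Eef2k, brightest first, 1 point per rat, diabetic on the left in red and normal on the right in blue, with a bar at the group mean. Both Eif4b probe sets and the first 2 of Eef2k separate the groups, with log2 differences of 0.56, 0.65, -0.88 and -0.39, and the other 2 of Eef2k overlap.

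The eEF1 subunits deliver aminoacyl-tRNA and recharge eEF1A. Of the 6 measured, 5 had a higher mean level, with a median log2 difference of 0.28. None passed in limma, and 3 had an unadjusted p under 0.05, all higher in diabetic muscle, against 12.8% of all genes in that direction. Eef1a1, the widely expressed form of eEF1A, had signals of 16020.8, 16873.7 and 21264.7 on diabetic arrays, against 13914, 13858.4 and 10543.4 on normal arrays, without overlap (log2 difference 0.50, SE 0.16, limma adjusted p = 0.0997). A second probe set, of a design that may also detect related transcripts, overlapped (log2 difference 0.22, limma adjusted p = 0.503). Eef1a2, the form that replaces Eef1a1 in adult muscle fibers, had 3739.4, 5783.9 and 4869.9 on diabetic arrays, against 5939, 3303.1 and 7793.1 on normal arrays. The arrays of Eef1a2 spread widely in both groups, and its log2 difference of -0.18 had an interval of -0.81 to 0.45. Whether the 2 forms differed from each other in their response was not tested.

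Eef1b2, an exchange factor for eEF1A, had signals of 4319.9, 4563.6 and 4419.6 on diabetic arrays, against 2858.5, 3813.8 and 3597.4 on normal arrays, without overlap (log2 difference 0.38, limma adjusted p = 0.156). Eef1g, the gamma subunit, had 11937.1, 11242.3 and 9328.5 on diabetic arrays, against 11434.3, 7845.1 and 12255.8 on normal arrays, which overlapped (log2 difference 0.06, 95% interval -0.35 to 0.47). Eef1d, a further exchange subunit, and Eef1e1, which also belongs to the tRNA synthetase complex, differed by 0.17 and 0.45, with overlap. The lysine methyltransferase Eef1akmt1 differed by -0.05. Eef1akmt4, below the filter, had 99.5, 113.7 and 134.8 on diabetic arrays, against 79.6, 70.2 and 91.3 on normal arrays, without overlap and without a test.

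Genes that control these factors, or that act beside them in translation, were read from 7 lists. The number called is at a limma adjusted p under 0.05, which over all tested genes was 3.46% higher and 3.55% lower. Of 13 tested genes of the integrated stress response, which follows phosphorylation of eIF2 alpha, 3 rose and 0 fell, with a median log2 difference of 0.27. They were Atf4, the transcription factor of this response (8315.4, 8570.3 and 10348.9 on diabetic arrays, against 4378, 5785.9 and 4568.1 on normal arrays, log2 difference 0.89, limma adjusted p = 0.0102), Ppp1r15a, which directs dephosphorylation of eIF2 alpha (log2 difference 1.03, limma adjusted p = 0.0054), and Nupr1, a stress-induced nuclear protein (log2 difference 1.36, limma adjusted p = 0.0017). The other 10 did not pass.

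Of 10 mTOR and S6 kinase genes, 1 rose and 1 fell (median log2 difference 0.12). Both encode negative regulators: Tsc1, a subunit of the complex that restrains mTORC1, rose by 0.71 on the log2 scale (limma adjusted p = 0.0437), and Deptor, an inhibitor bound to mTOR, fell by 1.17 on the log2 scale (limma adjusted p = 0.0062). Of 10 cap and poly(A) regulators, Eif4ebp1 rose and Mknk1, a kinase of eIF4E, fell by 0.84 on the log2 scale (limma adjusted p = 0.0494), with a median of -0.01 over the list. Larp1, also on this list, was not called by its brightest probe set (log2 difference 0.30, limma adjusted p = 0.379). A dimmer probe set of Larp1 passed (log2 difference 0.66, limma adjusted p = 0.0258), and its remaining ones did not. Of 6 termination and recycling genes 1 rose, Pelo, which rescues stalled ribosomes (log2 difference 1.27, limma adjusted p = 0.0041).

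Of 21 cytosolic tRNA synthetases and their partners 19 had a higher mean level (90.5%, against 50.8% of all genes, median log2 difference 0.21) and 1 rose, Yars1, the tyrosyl enzyme (log2 difference 0.66, limma adjusted p = 0.0438). The 4 mitochondrial translation factors had a median of -0.06, with 2 higher and 2 lower in mean, and the 2 hypusine enzymes of eIF5A had a median of 0.17. In both lists 0 genes were called, and 0 had an unadjusted p under 0.05 in limma. Whether the mitochondrial factors differed from the cytosolic ones in their shift was not tested.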

How the data were processed

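The authors extracted total RNA, hybridized 1 RAE 230A array per rat and made the deposited intensity values with MAS 5.0, linear and brought to 1 level on every array (trimmed mean about 500.2 on each, median 167.6 to 180.8). The settings of MAS 5.0 are not stated in the sources. Present calls and the BAM statistics were not used here, and a filter on mean signal took their place.

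A floor of 1 was applied (136 values lay under it) before log2, and arrays were not normalized again. The 57 control probe sets and those at or below the 40th percentile of mean signal were left out. The remaining 9519 were fitted in limma 3.58.1 (R 4.3.3, lmFit and eBayes with trend), with Benjamini-Hochberg adjustment over all of them and 4 residual degrees of freedom. Of these, 314 were called higher and 331 lower. Each rat is a separate animal, and the number of arrays limits the precision. The procedure was tested on simulated data.

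Gene names came from the annotation of the platform (12783 with 1 gene, 312 with several, 2771 with none). All 55 symbols equal current RefSeq symbols. Background shares are over the 7080 tested genes. Members and gene lists were chosen with earlier results of these data known. Genes described in full are those that passed, the largest difference in each complex, genes whose probe sets differed, and fixed central factors. Eif3h, Eif3b, Eif3f, Eif4h, Eif4e3, Eif4ebp3, Eif1ax, Eef1b2, Eef1g and Eef1akmt4 were chosen after their values were seen. Alternatives were other normalizations, offsets of 16 and 64, other filters, no variance trend, a replicate block and each array left out. Further ones were the mean over the probe sets of each factor, an unadjusted threshold and, added later, the GAPDH ratio as a covariate.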

Additional observations from a re-analysis of the deposited data

How the results depend on the processing

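Over the whole array 314 probe sets were called higher and 331 lower. Without a filter 200 were called higher, and with the replicate number as a block 162 were called higher and 170 lower. Leaving out 1 array gave 135 to 226 higher and 177 to 236 lower. Of the factors, 1 was called higher and 1 lower in the fit reported. Quantile normalization called 3 higher (Eif4b, Eef1a1 and Eef2) and 0 lower, a filter at the 60th percentile called 2 higher, and the GAPDH ratio as a covariate called 4 higher. In the same order, these settings called 336, 307 and 428 probe sets higher over the whole array, and 373, 301 and 419 lower. Scaling to the same median signal, no filter and no variance trend each called 0 factors higher and 0 lower in limma. In that order, they called 272, 200 and 219 probe sets higher over the whole array, and 303, 227 and 251 lower. At an unadjusted p under 0.05 in the fit reported, 15 factors (27.8%) were higher, against 12.8% of all genes, and 4 (7.41%) lower, against 11.9%. Averaging the probe sets of each factor gene, with all other probe sets kept separate, called 0 lower, since the probe sets of Eef2k differed. Leaving out 1 array called 0 higher and 0 to 1 lower. Deviations of same-numbered arrays had correlations of 0.098, -0.195 and -0.068. The labels do not say whether the numbers pair the rats, and so few values near 0 cannot decide it. With the replicate block 0 factors were called higher in limma (Eif4b, adjusted p = 0.0862) and Eef2k kept its call. Where a cause is not named, the cause was not tested.

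The share of factors with a higher mean was steadier: 42 to 46 were higher in each setting, the lowest being 42 of 54 without normal replicate 2 and 42 of 49 at the 60th percentile. The median log2 difference of the factors was 0.21 to 0.31 with 1 array left out, the lowest without normal replicate 3. With 1 array left out it was 0.19 to 0.35 for eIF3, 0.22 to 0.34 for eIF4, -0.053 to 0.12 for the eIF2 kinases and 0.15 to 0.23 for elongation. It was 0.28 for elongation with no filter or the 60th percentile filter, which change the genes counted, and 0.064 for other initiation factors with the 60th percentile filter. The direction of Eif2ak1 reversed to -0.14 as the mean of its probe sets. With 1 array left out the direction of 10 factors reversed: Eef1a2 (-0.53 to 0.093), Eif2ak3 (-0.038 to 0.60), Eif2ak4 (-0.15 to 0.12), Eif5a (-0.24 to 0.59), Eef1akmt1 (-0.12 to 0.071), Eef1g (-0.14 to 0.19), Eif1b (-0.055 to 0.18), Eif2d (-0.18 to 0.081), Eif3i (-0.091 to 0.11) and Eif3j (-0.063 to 0.18).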
